A study of Mus musculus with 4 samples.

Results

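Endothelial fatty acid uptake was described by 8 genes, Gpihbp1, Lpl, Cd36, Fabp4, Fabp5, Meox2, Tcf15 and Pparg. They were chosen by name for their known roles, with earlier results of these data known, and all 8 were found among the 27998 genes counted. Their levels were measured in nuclei of the right ventricle (RV) of wild-type C57/BL6J mice aged 21 days, by single-nucleus RNA sequencing. Surgery had been done at 7 days of age. The groups were 2 libraries after a sham operation and 2 libraries after right ventricular volume overload (RVVO), in which a fistula punctured between the abdominal aorta and the inferior vena cava returns extra blood to the right heart. The sham mice had the same operation without the puncture. Neither labels nor methods state how many mice went into each library, or if these mice had the injections of saline or cyclosporine A that the methods describe. The p-values below therefore measure only the spread between these libraries. Libraries are named sham 1, sham 2, RVVO 1 and RVVO 2, and every list of 4 values follows that order.

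Heart muscle burns fatty acids that reach it across the wall of its capillaries. Triglyceride in circulating lipoproteins is cut by lipoprotein lipase (Lpl), which is made by parenchymal cells, carried across the endothelial cell (EC) and held at its luminal face by Gpihbp1. Cd36 takes up the long-chain fatty acids that are released, and the fatty acid binding proteins Fabp4 and Fabp5 carry them inside the EC. The homeodomain factor Meox2 and the basic helix-loop-helix factor Tcf15 act as a pair that promotes this transport in capillary ECs, and Pparg is the nuclear receptor for fatty acid ligands that controls Cd36, Fabp4 and Gpihbp1 in ECs and adipocytes.

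The libraries held 53090 barcodes, of which 43180 were kept as nuclei, and the median barcode had 2311, 2262, 4705 and 3378 unique molecular identifiers (UMIs), each UMI standing for 1 captured RNA molecule. The RVVO libraries were thus deeper, and their median share of mitochondrial UMIs was lower, at 0.654% and 0.535% against 1.47% and 1.38%. Any pair of libraries shared 28 to 70 barcode sequences. Nuclei were grouped into clusters without the 8 genes, and clusters were named from marker genes. The ECs were 5 clusters, named from genes such as Ptprb, the vascular endothelial protein tyrosine phosphatase. Another cluster scored highest on the EC markers but had a median of 1003 UMIs, stayed unnamed and is not among these 5. It held 2748 nuclei, with 1207, 1175, 298 and 68 per library, so mostly sham nuclei. The 5 EC clusters held 10370 nuclei, with 3244, 3344, 1690 and 2092 per library, and Ptprb was counted in 73.8% to 84.5% of them. Levels are given as CPM, the UMIs of a gene in the summed nuclei of a class scaled to the same total in every class and library, and each mean ± SD is over the 4 libraries unless a group is named. A CPM value compares classes and libraries for the same gene and is not used here to compare genes. Lineages were built from these same counts, so levels between lineages and between EC subtypes are described and were not tested.

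The EC clusters were divided by subtype genes. Endocardial ECs, which line the chamber, were marked by Npr3 and Tmem108 and made up 1368 nuclei. Arterial ECs, marked by Gja5 and Sox17, made up 707 nuclei, and lymphatic ECs, marked by Mmrn1 and Reln, made up 347 nuclei. All others were counted as capillary ECs, 7948 nuclei in all. A cluster of 1284 nuclei among the capillary ECs is called vein-like, since Vwf was counted in 34.2% of its nuclei, Nr2f2 in 33.1% and Vcam1 in 13.2%, whereas Ackr1 was counted in 0.779%. Vwf was at 318 to 510 CPM in it, 19.6 to 46.5 CPM in the other capillary ECs and 1968.5 to 2114 CPM in endocardial ECs. Vcam1 was likewise highest in endocardial ECs and Nr2f2 in lymphatic ECs, so these markers are not particular to this cluster. The other 6664 capillary nuclei are called the capillary core. Pparg was among the 10 genes with the largest fold in that cluster although it had not been used to make it. That fold is over all other kept nuclei of any lineage, among genes counted in a set share of the cluster. It does not set the core apart from arterial ECs, whose Pparg range overlapped that of the core.

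Free RNA from broken cells is counted in nuclei of every type, and it has to be read beside the levels. Titin (Ttn), a sarcomere protein made by cardiomyocytes (CMs), reached 5471 to 7444 CPM in ECs and 20129 to 22730 CPM in CMs. For the calcium release channel Ryr2, ECs held 964 to 1379 CPM and CMs 15109 to 19521 CPM. The contrast was far smaller for the CM marker Myh6, at 6001 to 9335.5 CPM in ECs and 9885 to 12289 CPM in CMs. Ptprb was at 18.3 to 27.6 CPM in CMs, 46.0 to 75.1 CPM in fibroblasts and 56.0 to 84.8 CPM in pericytes, against 777 to 1060 CPM in ECs. In the smooth muscle cluster Ptprb was at 241 to 575 CPM and was counted in 25.4% to 55.4% of nuclei. This was the highest Ptprb level of the non-endothelial lineages, leaving out the adipocyte cluster described below. That cluster held 487, 158, 298 and 81.4 CPM. In glial cells Ptprb was at 73.4 to 223 CPM. A cluster with adipocyte markers held only 13 and 12 nuclei in sham 1 and RVVO 1 and is left out of the order of lineages. The 7 adipocyte markers together came to 16.9 to 25.8 CPM in ECs, against 51.3, 1593.5, 419 and 1410 CPM in that cluster. Of these, Lep and Adrb3 were at 0 in the ECs of all 4 libraries. Both were also at 0 in the adipocyte cluster of sham 1 and RVVO 1, so their absence from ECs says little.

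Across lineages, 7 of the 8 genes had a higher level in ECs than in each of the 7 other lineages in all 4 libraries. The exception was Tcf15, for which the smooth muscle cluster came above ECs in RVVO 2. As a share of the level in capillary ECs of the same library, CMs held 1.39% ± 0.331 for Meox2, 2.07% ± 0.276 for Pparg, 4.47% ± 1.69 for Tcf15, 7.99% ± 2.18 for Gpihbp1, 8.13% ± 1.75 for Fabp4 and 14.8% ± 2.87 for Fabp5. For Cd36 and Lpl the CM share was much larger, at 48.2% ± 5.02 and 61.7% ± 10.8. Among genes of at least 5 CPM, ranked by the log2 ratio of the EC level to the mean of the other lineages with 1 CPM added to both, Pparg was number 64 of 12144 genes and Lpl number 1197, with the other 6 between 317 and 999. The plot of levels by lineage shows these patterns.

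**Figure D1:**
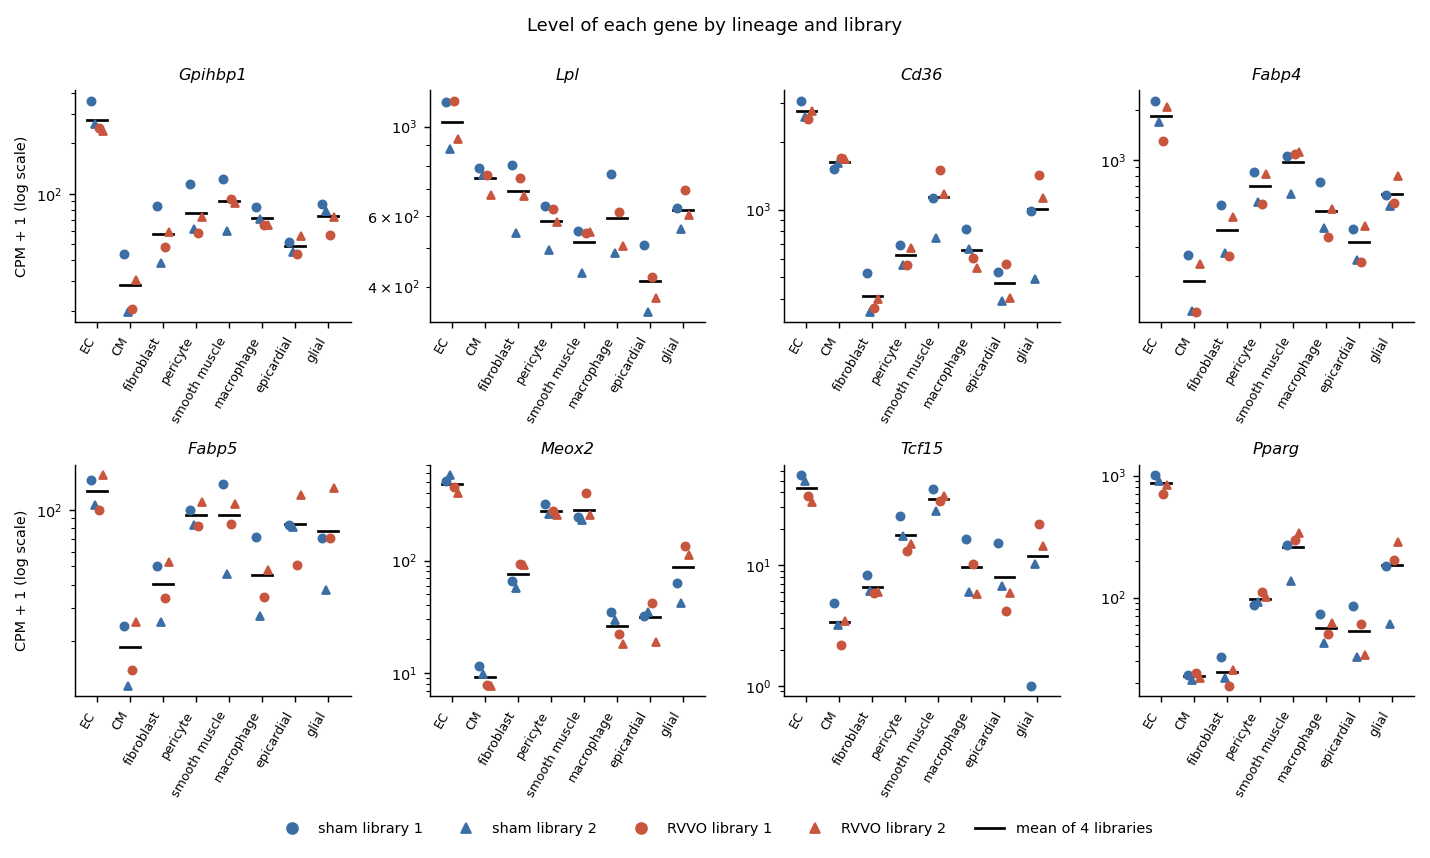
Level of each gene in the summed nuclei of 8 lineages, as CPM + 1 on a log axis whose range differs between panels, with a point for each of the 4 libraries and a bar at their mean. ECs hold the highest mean in every panel, CMs are second for Cd36 at 1627 CPM and for Lpl at 743 CPM, and pericytes and smooth muscle follow ECs for Meox2 at 277 and 281 CPM.

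Gpihbp1, the endothelial anchor of the lipase, is a short gene (ENSMUSG00000022579, chr15:75596628-75599481, plus strand, GRCm38) with 89.5% of its length in annotated exons. Its level in ECs was 358, 259, 245 and 237 CPM. The CMs held the lowest level of the lineages, 42.3, 18.7, 19.4 and 29.7 CPM, so ECs were 7.98 to 13.9 times higher within each library. From smooth muscle down to macrophages the means ran from 89.7 to 70.3 CPM, and the ranges of these neighbours overlapped. Within ECs it was highest in the capillary core, at 364 ± 49.4 CPM, and the ranges of the capillary core and arterial ECs (270 ± 40.5 CPM) did not overlap. The vein-like cluster held 201 ± 21.5 CPM. Endocardial ECs held 69.3 ± 18.7 CPM and lymphatic ECs 85.1 ± 14.1 CPM, and both lie within the 18.7 to 121 CPM spanned by the non-endothelial lineages.

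Lpl itself (ENSMUSG00000015568, chr8:68880491-68907448, plus strand, GRCm38) showed the smallest contrast between lineages of the 8 genes. ECs held 1149, 877, 1158 and 931 CPM. CMs held 786, 758, 755 and 673 CPM, so ECs were 1.16 to 1.53 times higher. Epicardial cells had the lowest level, 412 ± 71.0 CPM. From CMs down, the ranges of neighbours in the order all overlapped. Within ECs the means fell in the order capillary core (1269 ± 196 CPM), vein-like (1016 ± 211 CPM), arterial (818 ± 164 CPM), endocardial (483 ± 81.3 CPM) and lymphatic (422 ± 59.0 CPM). Of neighbours in this order, only arterial and endocardial ECs had ranges that did not overlap, and the capillary core was above the vein-like cluster in 4 of 4 libraries.

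Cd36, the fatty acid translocase, is a long gene (ENSMUSG00000002944, chr5:17781690-17888801, minus strand, GRCm38), and 3.35% of its length is exonic. ECs held 3055, 2592, 2547 and 2767 CPM and CMs 1510, 1616, 1696 and 1686 CPM. These ranges did not overlap, and the CM range lay above that of every lineage below it. The lowest level was that of fibroblasts, 408 ± 78.1 CPM. In the capillary core Cd36 stood at 3593 ± 318 CPM, above arterial ECs at 2569 ± 403 CPM and the vein-like cluster at 2431 ± 313 CPM, and these last ranges overlapped. It was 3.94 to 5.99 times higher in the capillary core than in endocardial ECs within a library.

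The fatty acid binding protein genes lie close together on the same chromosome. Fabp4 (ENSMUSG00000062515, chr3:10204088-10208576, minus strand, GRCm38) was counted at 2266, 1680, 1304 and 2092 CPM in ECs and at 265, 122, 121 and 235 CPM in CMs, the lowest lineage. Sham 1 and RVVO 2 were the high libraries in both lineages. Smooth muscle (970 ± 231 CPM) and pericytes (692 ± 166 CPM) came next after ECs, and their ranges overlapped. Within ECs the capillary core held 2397 ± 510 CPM, arterial ECs 1796 ± 455 CPM and the vein-like cluster 1309 ± 277 CPM, whereas endocardial ECs held 635 ± 180 CPM and lymphatic ECs 407 ± 104 CPM.

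Fabp5 (ENSMUSG00000027533, chr3:10012548-10016607, plus strand, GRCm38) had another order within ECs. It was highest in endocardial ECs in every library, at 160, 225, 146 and 222 CPM, against 157, 99.5, 104 and 143 CPM in the capillary core. The endocardial level was thus above that of the capillary core in 4 of 4 libraries, with the core at 0.443 to 0.980 of it, and the ranges overlapped. Arterial ECs held 85.7 ± 19.3 CPM, the vein-like cluster 70.4 ± 15.9 CPM and lymphatic ECs 44.1 ± 15.6 CPM. Among lineages ECs held 124 ± 26.6 CPM, and pericytes, smooth muscle, epicardial and glial cells held means of 92.7, 92.5, 82.8 and 76.4 CPM, with overlapping ranges. Only fibroblasts and CMs were separated in that order, at 39.6 ± 13.1 and 17.7 ± 6.90 CPM. A processed pseudogene of Fabp5 is annotated and was not among the genes counted, and the sources used here do not give how reads shared with it were assigned.

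Meox2 (ENSMUSG00000036144, chr12:37108540-37179534, plus strand, GRCm38) was at 503, 572, 450 and 396 CPM in ECs and at 10.6, 8.85, 6.87 and 6.70 CPM in CMs, a difference of 47.45 to 65.6 times within a library. It was also counted in the mural cells of vessels. Smooth muscle held 242, 229, 400 and 253 CPM, a range that overlapped that of ECs. The 8 EC markers together were at 1994, 1726, 3181 and 2299 CPM in that cluster, against 7481, 8628, 8211 and 7708 CPM in ECs. Their part in its levels of Meox2 and the other 7 genes was not tested. Pericytes held 319, 260, 276 and 255 CPM, while their Ptprb level was close to that of fibroblasts, which held 64.6, 56.0, 91.5 and 90.7 CPM of Meox2. The pericyte range lay above that of every lineage below it. Among EC subtypes Meox2 was the only gene of the 8 with its highest level in the vein-like cluster, at 721, 903, 800 and 820 CPM, with a range above that of the capillary core (555 ± 42.2 CPM) and arterial ECs (491 ± 45.5 CPM). Endocardial ECs (88.3 ± 22.0 CPM) and lymphatic ECs (102 ± 70.1 CPM) held a fraction of this, and the lymphatic value rested on 63, 5, 42 and 25 UMIs.

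Tcf15, the partner of Meox2 (ENSMUSG00000068079, chr2:152143561-152149097, plus strand, GRCm38), was the least counted of the 8 genes. ECs held 54.4, 48.4, 36.2 and 32.3 CPM, from 470, 375, 222 and 190 UMIs. CMs held 2.41 ± 1.11 CPM. The smooth muscle cluster followed ECs at 34.3 ± 6.16 CPM, with overlapping ranges, and rested on 11 to 25 UMIs per library. Within ECs the capillary core was highest, at 56.9 ± 9.10 CPM, then the vein-like cluster at 37.0 ± 9.82 CPM and arterial ECs at 34.8 ± 5.08 CPM. Endocardial ECs (9.31 ± 2.59 CPM) and lymphatic ECs (7.65 ± 6.39 CPM) were lowest, the latter from 1 to 4 UMIs per library.

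Pparg (ENSMUSG00000000440, chr6:115360951-115490399, plus strand, GRCm38) had the largest fold of the EC mean over the next lineage, 3.32, in the order without adipocytes. Over the adipocyte cluster, ECs were only 1.63 to 2.71 times higher within a library, a smaller fold than over smooth muscle in every library. The ends of this range are RVVO 1 and sham 1, where that cluster held 12 and 13 nuclei. The 8 EC markers together stood at 4897, 1155, 2210 and 563 CPM in the adipocyte cluster. Their part in its Pparg level was not tested. ECs held 1006, 903, 705 and 839 CPM, and CMs 22.3, 20.05, 22.9 and 21.1 CPM, so that ECs were 30.8 to 45.1 times higher within a library. Of the lineages in the order, smooth muscle came next at 260 ± 87.1 CPM, then glial cells at 183 ± 93.7 CPM and pericytes at 96.9 ± 10.8 CPM. Within ECs the ranges overlapped between arterial ECs (1176 ± 73.7 CPM) and the capillary core (1159 ± 97.98 CPM), each being above the other in 2 of 4 libraries. The vein-like cluster held 523 ± 60.1 CPM, below both in every library, lymphatic ECs 251 ± 109 CPM and endocardial ECs 130 ± 23.04 CPM. The antisense gene Gm44079 overlaps Pparg on the other strand. The sources used here do not give whether strand was used, so reads of these genes may not have been told apart.

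**Figure D2:**
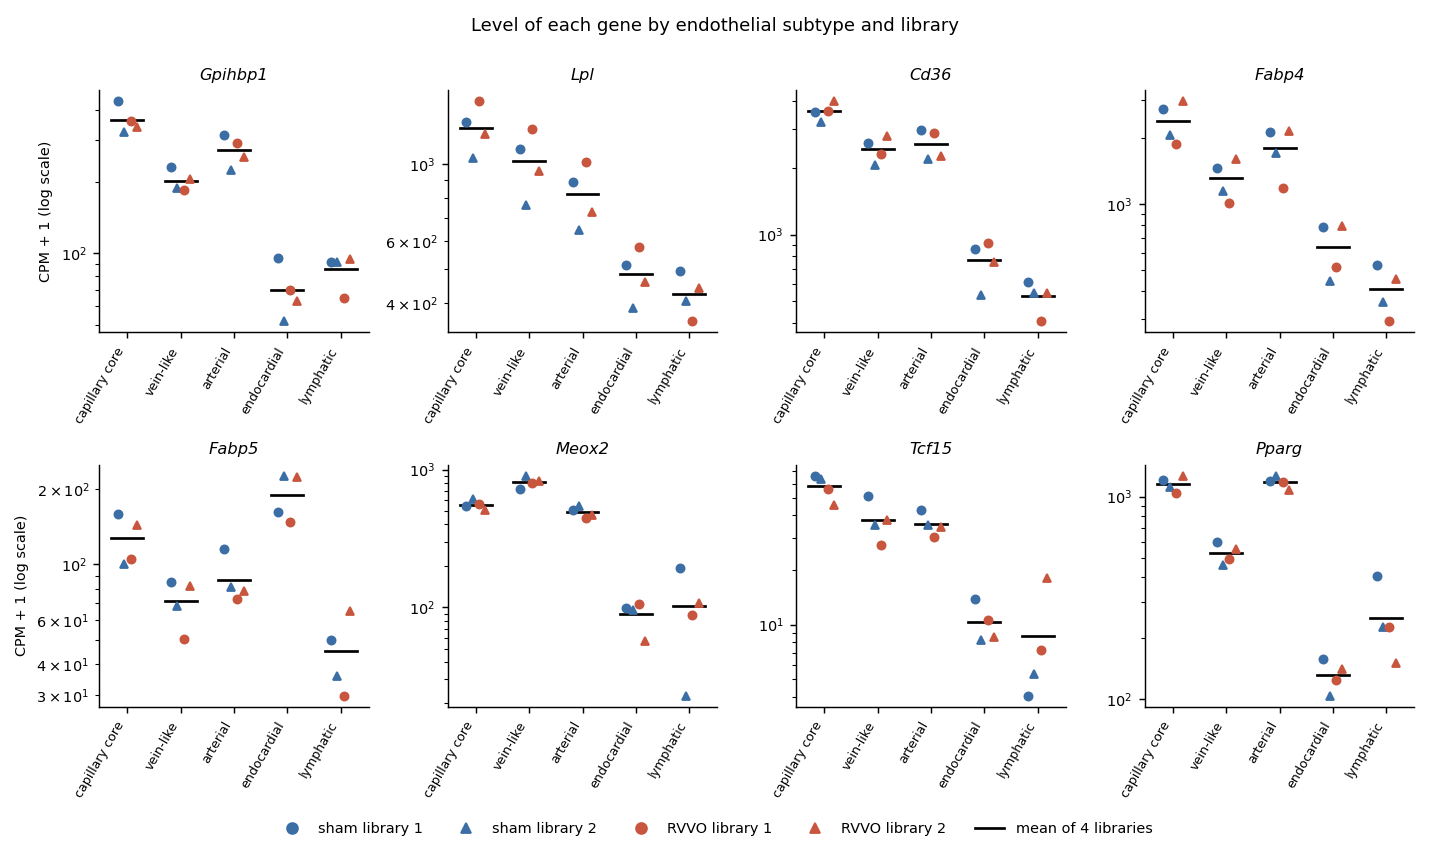
Level of each gene in the 5 EC subtypes, as CPM + 1 on a log axis whose range differs between panels, with a point for each of the 4 libraries and a bar at their mean. Endocardial and lymphatic ECs are the lowest subtypes for 7 of the 8 genes, and Fabp5 is highest in endocardial ECs at 188 CPM.

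Read together by subtype, 7 of the 8 genes were higher in capillary ECs than in both endocardial and lymphatic ECs in all 4 libraries, Fabp5 being the exception. The contrast was largest for Pparg, whose level in endocardial ECs was 12.4% ± 1.62 of the capillary level, and for Meox2, at 14.7% ± 3.37. It was smallest for Lpl, at 39.4% ± 0.467, which is close to the 33.8% ± 4.52 of epicardial cells. Fabp5 in endocardial ECs was at 168% ± 54.2 of the capillary level.

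RefSeq promoter windows of GRCm38.p6, from 250 bases before to 50 after a transcription start, were at hand for 3 of the 8 genes, namely Cd36, Meox2 and the 3 starts of Pparg, 5 windows in all. The Cd36 window, chr5:17835847-17836146, lies inside the annotated gene, whose 5′ end is at chr5:17888801, and no window covered that end. The 5 windows were searched on both strands for AGGTCA, the half-site to which nuclear receptors such as Pparg and its partner Rxra bind. It was found in 3 of the 5 windows, against 16.3% of 32851 windows of the same length. The 30 bases around each match are shown from 5′ to 3′ on the gene's strand, with the half-site in capitals, because Pparg and Cd36 were both high in capillary ECs.
Cd36, chr5:17836107-17836136, minus strand, from -240 to -211 relative to the start, where the half-site is on the opposite strand: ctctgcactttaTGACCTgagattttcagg
Pparg first start, chr6:115361104-115361133, plus strand, from -40 to -11 relative to the start: agccgccgcctcAGGTCAgagtcgccccgg
Pparg second start, chr6:115362319-115362348, plus strand, from -30 to -1 relative to the start: ttttatataagggacgcgaggAGGTCAaga

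No window held a pair of AGGTCA half-sites in the same direction 1 base apart, which 0.0396% of all windows did. The E-box CANNTG, the motif of helix-loop-helix factors such as Tcf15, was in 4 of the 5 windows and in 72.3% of all windows. The homeodomain core TAATTA (5.29% of all windows) and the forkhead motif TGTTTAC (3.65%) were in none of the 5, and the ETS core GGAA, in 96.0% of all windows, was in each of them. The first Pparg window is rich in CpG dinucleotides, with 44 of them and a GC content of 80.3%, while the Cd36 window has 3 and 43.0% and the median of all windows is 7 and 52.7%. These matches describe the letters of the windows and were not tested for binding.

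At the level of single nuclei, Cd36 was found in nearly all capillary ECs even at a low depth. After each nucleus was thinned to 1000 UMIs, Cd36 was counted in 92.45%, 89.2%, 91.3% and 93.9% of capillary EC nuclei. Fabp4 was counted in 81.8%, 71.5%, 71.15% and 80.4%, Lpl in 69.4%, 59.4%, 72.9% and 67.2%, and Pparg in 55.8%, 52.8%, 49.0% and 58.3%. Meox2 followed at 33.15%, 36.4%, 36.2% and 33.4%, Gpihbp1 at 29.9%, 24.5%, 23.5% and 23.4%, Fabp5 at 12.3%, 8.24%, 6.85% and 11.9%, and Tcf15 at 6.13%, 6.06%, 4.24% and 4.05%. The depth was equal by construction, with 2609, 2608, 1227 and 1383 nuclei, and shallower nuclei were left out.

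The same shares were read in CMs and fibroblasts at the same depth. Free RNA and RNA made by these cells themselves were not told apart in them. In CMs the share was 1.375%, 1.17%, 0.775% and 0.815% for Meox2, 2.35%, 2.17%, 2.29% and 2.06% for Pparg and 0.194% to 0.310% for Tcf15. For Gpihbp1 CMs gave 2.41% to 5.30% and fibroblasts 3.47% to 8.71%, and for Fabp5 CMs gave 1.45% to 2.71% and fibroblasts 2.27% to 5.63%. For Fabp4, CMs still gave 14.0% to 26.6% and fibroblasts 26.4% to 43.3%. For Lpl, CMs gave 49.2% to 55.6% and fibroblasts 41.9% to 53.6%. For Cd36, CMs gave 75.45% to 78.3% and fibroblasts 27.7% to 42.2%, and the summed CM level was above that of every other non-endothelial lineage in the order.

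**Figure D3:**
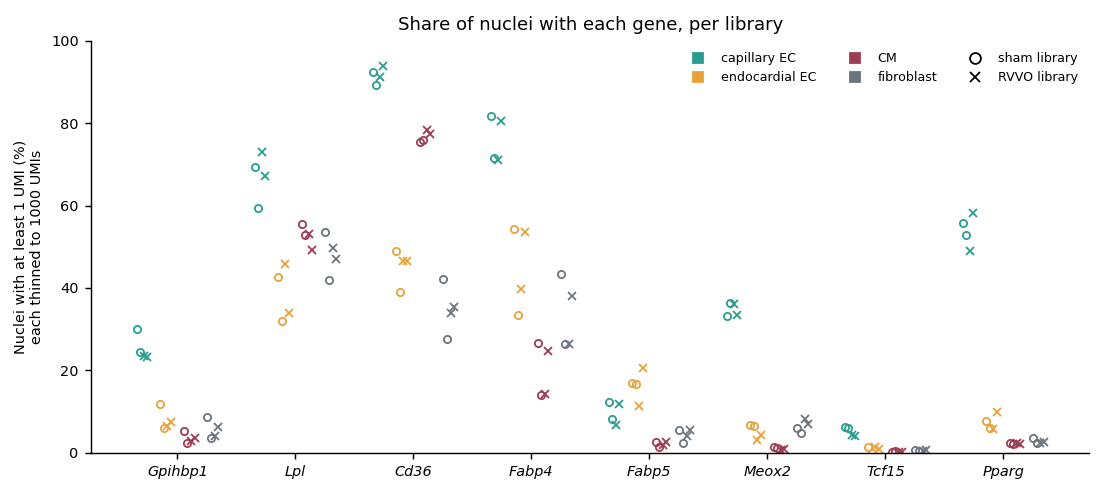
Share of nuclei with at least 1 UMI of each gene in capillary ECs, endocardial ECs, CMs and fibroblasts, with every nucleus thinned to 1000 UMIs and a point for each of the 4 libraries. Capillary ECs lie above the other classes for 7 genes, and Fabp5 in 11.3% to 20.6% of endocardial nuclei is the exception.

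In capillary nuclei thinned to 2000 UMIs, a median of 5 of the 8 genes was counted per nucleus in every library, and 65.7%, 53.9%, 57.4% and 58.0% of nuclei held 5 or more. For the partners Meox2 and Tcf15, Tcf15 was counted in 11.6%, 10.4%, 8.44% and 6.20% of nuclei with a Meox2 UMI and in 11.9%, 10.7%, 10.1% and 9.83% of nuclei without. Fabp5 was counted in 22.25%, 16.8%, 15.45% and 19.7% of nuclei with Fabp4 and in 12%, 7.64%, 7.08% and 9.26% of those without, but the latter were only 75, 157, 113 and 54 nuclei. These shares describe nuclei of the same libraries and were not tested.

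The genes with the most similar pattern were found by Pearson's r of log2(CPM + 1) over 50 sums, each of a lineage or EC subtype in a library with at least 20 nuclei, among 11731 genes. The sums share libraries, depth and free RNA, so r is a description. Fabp4 and Gpihbp1 were among each other's 3 closest genes (r = 0.9125), and both were close to Cd300lg, a capillary receptor (0.9255 and 0.918). Gpihbp1 was closest to Ly6c1 (0.919) and Fabp4 also to the stem cell factor gene Kitl (0.908), which was likewise closest to Tcf15 (0.862), followed by Cds2 (0.854) and 1810011O10Rik (0.851). Meox2 was closest to Epas1, a hypoxia-inducible factor (0.9045), Fzd4, a receptor of Wnt and norrin (0.902), and Tbx3 (0.895), and Pparg to Adgrl4, an endothelial adhesion receptor (0.911), its own antisense gene Gm44079 (0.911) and Rgs12 (0.909).

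Lpl was closest to Cd36 (0.791), Magix (0.751) and Cecr2 (0.733), and Cd36 to Cecr2 (0.865), Ralgapa1 (0.832) and Epb41 (0.832). Fabp5 was closest to Tm4sf1 (0.834), Eva1b (0.818) and Ctla2a (0.781). Between members, r was highest for Gpihbp1 with Fabp4 and for Fabp4 with Pparg (0.8765), and lowest for Lpl with Fabp5 (0.0284) and for Cd36 with Fabp5 (0.193).

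RVVO was compared with sham to see whether these genes change in the volume-overloaded RV. In ECs none of the 8 genes passed an adjusted p of 0.05 by edgeR's quasi-likelihood test on summed counts, with Benjamini-Hochberg adjustment over 13441 genes, of which 48 passed (0.357%). At an unadjusted p under 0.05 there were 4 of the 8, Gpihbp1, Meox2, Tcf15 and Pparg, all lower in RVVO, where 5.12% of all genes tested were lower at that p. DESeq2 also called none of the 8 after adjustment and had 4 at an unadjusted p under 0.05. By edgeR the number at that p fell to 1 with nuclei thinned to 1000 UMIs. It was 2 with the unnamed low-UMI cluster of EC markers added, and 3 with a term for the replicate number. Of all genes, 1037 of 11504, 1397 of 13664 and 1226 of 13441 were at that p in these fits. The sham ECs held Xist, the female transcript, at 1233 and 1210 CPM and the RVVO ECs at 0.163 and 0.170 CPM, while the Y-linked Uty was at 0 and 0.129 CPM against 249 and 240 CPM. The sham nuclei were therefore female and the RVVO nuclei male, so sex is confounded with the operation in each comparison that follows, and their effects cannot be told apart.

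Tcf15 had the largest difference in ECs. It was at 54.4 and 48.4 CPM in sham and 36.2 and 32.3 CPM in RVVO, groups that did not overlap, with a fitted log2 fold change of -0.67 ± 0.15 (SE), an unadjusted p of 0.00318 and an adjusted p of 0.154 by edgeR. For Gpihbp1 the values were 358 and 259 CPM against 245 and 237 CPM (log2 fold change -0.45 ± 0.18, adjusted p = 0.461 by edgeR). Meox2 was at 503 and 572 CPM against 450 and 396 CPM (-0.43, adjusted p = 0.337 by edgeR), and Pparg at 1006 and 903 CPM against 705 and 839 CPM (-0.39, adjusted p = 0.411 by edgeR). The groups of these 4 genes did not overlap and RVVO was lower, which held for 11.8% of all genes tested, while 28.9% were apart with RVVO higher and none of the 8 was. For Lpl, Cd36, Fabp4 and Fabp5 the groups overlapped, with fitted log2 fold changes of -0.04 ± 0.20, -0.18 ± 0.16, -0.31 ± 0.25 and -0.08 ± 0.23.

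The mixture of EC subtypes differed between the groups at the same time. Endocardial nuclei were 8.63% and 7.835% of ECs in sham and 17.3% and 25.5% in RVVO. The capillary core was 70.8% and 66.7% against 57.3% and 55.8%, and arterial ECs were 7.34% and 8.52% against 4.44% and 5.21%. Lymphatic ECs were 2.90% and 2.75% against 5.56% and 3.20%. These groups did not overlap, and the exact two-sided permutation test of 2 against 2 libraries gave its smallest possible value, p = 0.3333. The shares leave out the unnamed low-UMI cluster with EC markers, which held 1207 and 1175 nuclei in sham and 298 and 68 in RVVO. A change in the number of cells of a subtype and in the yield of its nuclei cannot be told apart.

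**Figure D4:**
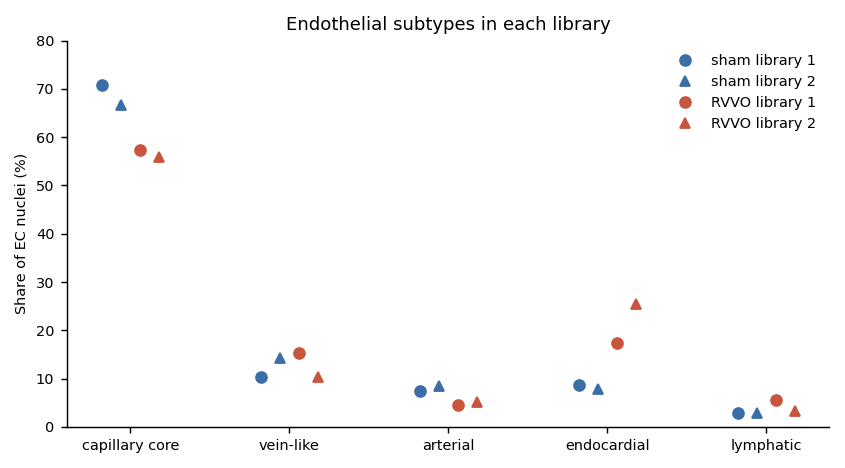
Share of EC nuclei in each subtype, in percent, with a point for each of the 4 libraries. Endocardial ECs are at 8.63% and 7.835% in the sham libraries and 17.3% and 25.5% in the RVVO libraries, and the capillary core is lower in both RVVO libraries.

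With the level of each subtype weighted by its mean share of EC UMIs over the 4 libraries, so that the mixture was the same in each, the differences were smaller for the 4 genes. The log2 ratio of RVVO to sham changed from -0.36 to -0.11 for Gpihbp1, from -0.34 to -0.10 for Meox2 and from -0.31 to -0.03 for Pparg, all 3 with overlapping groups at the fixed mixture. For Tcf15 it changed from -0.59 to -0.34, and the groups, at 49.99 and 44.96 CPM against 39.8 and 35.4 CPM, did not overlap. For Cd36 and Lpl it changed from -0.09 and 0.04 to 0.15 and 0.21, for Fabp4 from -0.22 to 0.0012, and for Fabp5 from 0.02 to -0.08. These ratios are of plain CPM means, without the normalization of the fit, and were not tested. The share of all genes whose groups were apart at the fixed mixture was not counted, so the Tcf15 separation has nothing to be set against.

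Capillary ECs were then compared alone. None of the 8 genes passed by edgeR, with 25 of 12539 genes passing (0.199%). Tcf15 was the only one at an unadjusted p under 0.05, where 3.6% of all genes tested were lower and 2.22% higher in RVVO at that p, and DESeq2 had none of the 8. Tcf15 was at 63.4 and 57.2 CPM against 49.1 and 43.7 CPM, with a log2 fold change of -0.43 ± 0.15 and an adjusted p of 0.672 by edgeR, lower in both RVVO libraries. Its groups did not overlap, as for 11.6% of all genes tested with RVVO lower and 22.3% with RVVO higher. The other 7 genes had overlapping groups and fitted log2 fold changes between -0.20 (Gpihbp1, SE 0.18) and 0.16 (Lpl, SE 0.20). Cd36 was at 3458 and 2995 CPM against 3331 and 3799 CPM, and Pparg at 1124 and 1000.46 CPM against 929 and 1160 CPM.

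These differences depended on how capillary ECs were chosen. When every nucleus with a Ptprb UMI, of any cluster, was placed on its own by its UMIs of the subtype genes, none of the 8 genes passed by edgeR, but 4 of the 8 had an unadjusted p under 0.05, as did 14.4% of all genes in that fit. The log2 fold changes were then -0.67 ± 0.17 for Gpihbp1, -0.57 ± 0.13 for Meox2, -0.90 ± 0.14 for Tcf15 and -0.52 ± 0.20 for Pparg, with adjusted p of 0.174, 0.160, 0.0887 and 0.308 by edgeR. Of all nuclei with a Ptprb UMI, 54.6%, 61.1%, 42.3% and 48.2% lay in the clusters named ECs. Unnamed clusters held 30.6%, 19.6%, 30.5% and 26.9%, and CM clusters 7.23%, 7.77%, 14.0% and 12.1%. The RVVO libraries thus had a lower share in EC clusters and a higher share in CM clusters. These shares cover Ptprb nuclei of every subtype, and those of the nuclei placed as capillary were not counted. The part of this mixture in the larger differences was not tested.

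**Figure D5:**
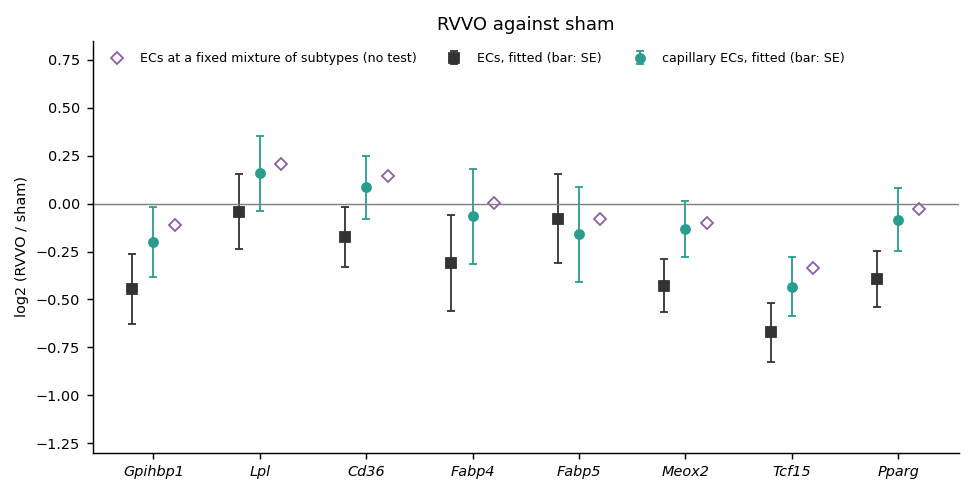
The log2 ratio of RVVO to sham for each gene in all ECs and in capillary ECs, fitted by edgeR with the SE as a bar, and in ECs at a fixed mixture of subtypes, which has no error and was not tested. Gpihbp1, Meox2 and Pparg lie at -0.45, -0.43 and -0.39 in all ECs and at -0.20, -0.13 and -0.08 in capillary ECs.

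In the smaller subtypes no member passed by edgeR either, and Pparg in lymphatic ECs was the only one at an unadjusted p under 0.05, where 4.34% of genes in endocardial, 7.06% in arterial and 5.43% in lymphatic ECs were at that p. Among endocardial ECs 7 of 9658 genes passed (0.0725%), among arterial ECs 44 of 6773 (0.65%) and among lymphatic ECs 11 of 5469 (0.201%), where Tcf15 was too low to be tested. Fabp5 in endocardial ECs was at 160 and 225 CPM in sham and 146 and 222 CPM in RVVO, with a log2 fold change of -0.09 ± 0.25. Lymphatic Pparg was at 405 and 226 CPM against 225 and 149 CPM, a log2 fold change of -0.74 ± 0.30 with an unadjusted p of 0.0285 and an adjusted p of 0.837 by edgeR.

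The share of capillary EC nuclei with a UMI was compared at 1000 UMIs per nucleus. For Tcf15 it was 6.13% and 6.06% in sham and 4.24% and 4.05% in RVVO, a difference of -1.95 percentage points, and for Gpihbp1 it differed by -3.82 points. Those groups did not overlap, and the exact permutation test gave p = 0.3333, its smallest value, for each. The share of all genes whose groups were apart at this depth was not counted, so it is not known whether the separation is particular to these genes. For the other 6 genes the groups overlapped and the differences lay between -0.92 (Fabp5) and 5.67 points (Lpl). At 2000 UMIs the groups of Tcf15 alone were apart, and with no thinning those of Meox2 alone, which was then higher in the deeper RVVO libraries.

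In the other lineages the 8 genes were compared in CMs, fibroblasts, pericytes, smooth muscle, macrophages and epicardial cells. None of 46 tests passed by edgeR, where 0.0482%, 0.0932%, 0.092%, 0.128%, 0.104% and 0.103% of all genes passed. At an unadjusted p under 0.05 there were 3 of the 46, near the background, since 5.64%, 4.19%, 4.61%, 5.26%, 7.55% and 2.29% of all genes in these lineages were at that p. DESeq2 called none, with Meox2 in fibroblasts at an unadjusted p under 0.05. Cd36 in CMs was at 1510 and 1616 CPM in sham and 1696 and 1686 CPM in RVVO, with a fitted log2 fold change of 0.06 ± 0.13. Meox2 in fibroblasts had the lowest p outside ECs, at 64.6 and 56.0 CPM against 91.5 and 90.7 CPM, with a log2 fold change of 0.57 ± 0.15 and an adjusted p of 0.710 by edgeR. Meox2 in pericytes differed by -0.13 ± 0.18. In CMs Meox2 was at 10.6 and 8.85 CPM against 6.87 and 6.70 CPM, a fold change of -0.57 ± 0.20 on the log2 scale. Pparg in smooth muscle was at 270 and 136 CPM against 296 and 337 CPM, or 0.62 ± 0.28. The 8 EC markers together were at 1994 and 1726 CPM in sham smooth muscle and 3181 and 2299 CPM in RVVO, and Ptprb was at 283 and 241 CPM against 575 and 342 CPM. Neither overlapped between the groups, and their part in the Pparg difference was not tested.

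The change in ECs was also set against that in CMs in a fit with a term for each library. None of the 8 genes passed by edgeR, nor did any of the 15075 genes (0.0%), of which 1132 had an unadjusted p under 0.05 (7.51%). Pparg was the only member at that p, with a difference of -0.40 ± 0.17 and an adjusted p of 0.650 by edgeR.

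The genes of 6 related lists were read in the same fits, as counts, beside the 5.12% lower and 5.39% higher of all genes at an unadjusted p under 0.05 in ECs. Of 14 tested genes of fatty acid carriers and activation, none passed in ECs, and 4 had an unadjusted p under 0.05, all lower in RVVO. The list's median log2 fold change was -0.13, against -0.01 for all genes. The high-density lipoprotein receptor Scarb1 had the lowest p, at 162 and 201 CPM against 126 and 111 CPM (log2 fold change -0.69, adjusted p = 0.138 by edgeR) in ECs and 190 and 233 CPM against 163 and 148 CPM in capillary ECs, with no overlap in either. Acsl5, an acyl-CoA synthetase, and Cavin1, a coat protein of caveolae, followed at -0.47 and -0.33. By lineage, Scarb1, Cav1, Cav2 and Cavin2 were highest in ECs, whereas the carrier Slc27a1, Acsl1 and Got2 were highest in CMs. Another 7 genes, with Acsl5 and Cavin1 among them, were highest in other lineages.

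For lipase and lipoprotein handling, 18 genes were tested in ECs and none passed. Of these 5 were higher and 2 lower in RVVO at an unadjusted p under 0.05, with a median of -0.03. Apoe, the apolipoprotein that macrophages make in large amount, was at 113 and 131 CPM in sham and 175 and 322.5 CPM in RVVO (0.94 ± 0.26, adjusted p = 0.238 by edgeR). The 8 macrophage markers together were at 88.3 and 92.9 CPM in sham ECs and 137 and 182 CPM in RVVO ECs, and their part in the Apoe level was not tested. Lsr, a lipoprotein receptor, had a fitted log2 fold change of 1.02 ± 0.31 at levels of 4.05 to 13.4 CPM (adjusted p = 0.284 by edgeR). By lineage, 3 genes of this list were highest in ECs, 2 in CMs and 13, with Apoe and Lsr among them, in other lineages.

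Of the 18 signals and receptors, such as the Vegf receptors and the apelin system, none passed, 3 were lower at an unadjusted p and the median was -0.05. Dll4, a Notch ligand, was at -0.48 ± 0.15 in ECs and -0.24 ± 0.17 in capillary ECs, and Apln and Epas1 were at -1.01 and -0.31 in ECs. Of these, 9 genes were highest in ECs by lineage, while Vegfb and Vegfa were highest in CMs. Among 16 PPAR partners and coregulators none passed, and Ppard was the only gene at an unadjusted p under 0.05, at 70.5 and 83.8 CPM against 66.5 and 59.0 CPM (-0.38 ± 0.14). Nr1h2 and Nr1h3, the liver X receptors, were at -0.36 and 0.48. The list's median was -0.17 in ECs and -0.11 in capillary ECs. By lineage, 1 of its genes was highest in ECs, 5 in CMs and 10, with Ppard among them, in other lineages.

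Among 15 genes of fatty acid storage and release none passed and 4 were lower at an unadjusted p under 0.05. Plin2, the coat protein of lipid droplets, was at 67.3 and 78.0 CPM in sham and 29.4 and 51.5 CPM in RVVO ECs (-0.93 ± 0.24, adjusted p = 0.201 by edgeR). In capillary ECs it was at 77.5 and 85.8 CPM against 34.5 and 63.1 CPM (-0.80 ± 0.24, adjusted p = 0.478 by edgeR), lower in both RVVO libraries. The lipases Lipe and Pnpla2 were at -0.44 and -0.48 in ECs and -0.21 and -0.27 in capillary ECs. By lineage, 3 genes of this list, with both lipases among them, were highest in ECs and 9 in CMs. Plin2 was highest in neither, and the part of RNA from other cells in its EC level was not tested.

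The 14 genes of capillary identity were the list with the lowest median in ECs, -0.44, and 6 of them were lower at an unadjusted p under 0.05, none after adjustment. The water and glycerol channel Aqp7 was at 83.6 and 74.3 CPM against 52.8 and 49.8 CPM (-0.71 ± 0.14, adjusted p = 0.111 by edgeR), Cd300lg at -0.43 and the nucleoside carrier Slc28a2 at -0.64. Within capillary ECs the median of this list was -0.17, and 1 gene was higher and 1 lower at an unadjusted p.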

How the data were processed

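Nuclei of the right ventricle were sequenced as 10x 3′ libraries, and the authors deposited, for each of 4 libraries, a filtered matrix of UMI counts per gene and barcode, not normalized. The file header names Cell Ranger 5.0.0, and the submitters' processing notes name Cell Ranger 3.0.1, STAR, Seurat 3.0.2, GRCm38 and mm10. The sources used here do not give whether introns or strand were used. The 8 genes, the related lists and the alternatives were chosen with earlier results of these data known.

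Kept barcodes had 200 or more genes and less than 10% of UMIs from mitochondrial genes. Scrublet's own threshold marked 0 or 1 barcode per library, so the highest doublet scores were removed at 0.8% per 1000 barcodes. Clusters (scanpy 1.11.5, leidenalg 0.10.2, resolution 1, 2000 variable genes without the 8, 30 components) were named from marker lists. The naming thresholds were set after the clusters were seen, and clusters with a median under 1500 UMIs or a median doublet score over 0.07 stayed unnamed. Counts were summed per library and class, and tested by edgeR 4.0.16 (TMM, filterByExpr, quasi-likelihood, Benjamini-Hochberg, R 4.3.3) over all genes, with an adjusted p of 0.05 as the threshold, each class in its own fit. DESeq2 1.42.0 was an alternative. Shares and compositions were compared by exact two-sided permutation tests (scipy 1.17.1). In simulated ECs with 200 changed genes of 13218, edgeR called 88.9% of genes with a simulated log2 change of 2, and 46.5% where it was 1, and 4.96% of its calls were false.

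The sham libraries totalled 55516713 and 51010039 UMIs and the RVVO libraries 64739206 and 63422784, and each library was 1 replicate. No 2 libraries of a group were duplicates, as the chi-square per degree of freedom of their EC counts was 13.7 (sham) and 9.93 (RVVO). Gene positions are from GENCODE M21 on GRCm38, matched by identifier. The genes named are the 8, the 3 genes closest to each, and for each list the 3 with the lowest unadjusted p in ECs, except that 1 item is not reported here. Other genes named in the counts by lineage are members of the lists.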

Additional observations from a re-analysis of the deposited data

How the results depend on the processing

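In ECs, capillary ECs, the other lineages and the contrast of ECs with CMs, none of the 8 genes passed under any of 12, 13, 8 and 4 alternatives, with a lowest adjusted p of 0.0811 in ECs and 0.0887 in capillary ECs. Of all genes, 48 passed in ECs, 232 by DESeq2, 18 with the replicate block, 129 with nuclei thinned to 1000 UMIs, 28 without doublet removal, 9 with every Ptprb nucleus and 32 with no filter on low counts. Without sham 1, sham 2, RVVO 1 or RVVO 2 it was 81, 235, 20 or 130. In capillary ECs 25 passed, 96 by DESeq2, 148 with no filter, and 83, 101, 26 or 84 without sham 1, sham 2, RVVO 1 or RVVO 2. Of the 8 genes, 7 were above endocardial and lymphatic ECs under each alternative, and the number above every other lineage was 7, 6 with nuclei thinned to 1000 UMIs and 8 without doublet removal. At the fixed mixture of EC subtypes, added after seeing the data, the ratios in ECs of Lpl (0.21), Cd36 (0.15) and Fabp4 (0.0012) had the opposite sign to the fitted values, but Lpl was already positive (0.04) as a ratio of plain CPM, on which scale Fabp5 turned from 0.02 to -0.08. Assigning each nucleus on its own turned Lpl to -0.15 and Cd36 to -0.18 in capillary ECs and moved Gpihbp1 from -0.20 to -0.67, Meox2 from -0.13 to -0.57, Tcf15 from -0.43 to -0.90 and Pparg from -0.08 to -0.52, with 4 of the 8 genes at an unadjusted p under 0.05 in place of 1. In ECs, every Ptprb nucleus moved Gpihbp1 from -0.45 to -0.89, Meox2 from -0.43 to -0.72, Tcf15 from -0.67 to -1.11 and Pparg from -0.39 to -0.63, where 15.2% of all genes had an unadjusted p under 0.05. The cause was not tested. In ECs the number of the 8 genes at an unadjusted p under 0.05 moved from 4 to 1 with nuclei thinned to 1000 UMIs. With the low-UMI EC cluster added it was 2. Of all genes, 1037 of 11504 and 1397 of 13664 were at that p in these 2 fits. With a library left out, the log2 fold change in ECs ran from -0.24 to 0.19 for Lpl, from -0.39 to 0.19 for Fabp5, from -0.68 (without sham 2) to -0.17 (without sham 1) for Gpihbp1, from -0.66 to -0.03 for Fabp4 and from -0.31 to -0.03 for Cd36. In capillary ECs it ran from -0.43 to 0.072 for Gpihbp1, -0.045 to 0.39 for Lpl, -0.040 to 0.22 for Cd36, -0.43 to 0.22 for Fabp4, -0.47 to 0.23 for Fabp5 and -0.23 to 0.047 for Pparg. The other 97 and 92 values kept their direction. Of the 8 genes, the number whose shares did not overlap was 2, and 1 at 2000 UMIs (Tcf15), 1 with no thinning (Meox2) and 4 to 6 with a library left out, where a group of 1 separates more easily. The share of all genes apart was not counted in any of these settings. Whether equal replicate numbers pair these libraries is not known. In ECs the difference of number 1 and number 2 correlated between the groups with r = 0.0183 over 13441 genes, and the replicate block changed no call of the 8 genes. This check covers EC levels only and cannot exclude a pairing. Epicardial nuclei were 98, 413, 126 and 508 and adipocyte nuclei 13, 115, 12 and 140, more in number 2 of both groups. Pericyte nuclei, at 481, 800, 381 and 316, were not. With 2 libraries a group, an exact test cannot go below p = 0.3333.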

Other observations

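The binding protein genes varied between libraries in the same way in nearly every class. Over 12 lineages and EC subtypes, Fabp4 was higher in sham 1 than in sham 2 in 12 and higher in RVVO 2 than in RVVO 1 in 12, with median folds of 1.54 and 1.57. Fabp5, its neighbour on the chromosome, was so in 11 and 12 classes, with median folds of 1.5 and 1.55. Gpihbp1 was higher in sham 1 in 12 classes and in RVVO 2 in 7, Lpl in 12 and 2, and Cd36 in 11 and 5. For Meox2 these numbers were 8 and 3, for Tcf15 10 and 8 and for Pparg 10 and 7. Exons cover 100% of Fabp4, 89.5% of Gpihbp1 and 87.9% of Fabp5, but 38.9% of Lpl, 17.7% of Tcf15, 3.35% of Cd36, 3.32% of Meox2 and 2.28% of Pparg. The classes of a library share its free RNA, so their agreement does not count as separate observations. The parts of free RNA and of gene structure in the differences between libraries were not tested.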
